A study of Homo sapiens with 6 samples.

Results

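Histone methylation enzymes that act on marks other than H3K4 were followed in a GLO1 knockout of HEK293T, a line derived from human embryonic kidney. The genes were chosen by name, as methyltransferases and demethylases of H3K9, H3K36, H3K79 and H4K20, demethylases of H3K27, arginine methyltransferases and related SET, SMYD, PRDM and JmjC genes, and all 43 were found among the 56832 rows of the count tables. Cells kept overnight with 0.2 mM methylglyoxal (MGO) gave 3 libraries, numbered 1, 3 and 4, and untreated cells gave 3 libraries, numbered 1, 2 and 4. All 6 libraries carry the GLO1 knockout, so cells with an intact gene are no part of the comparison, and the labels say neither whether the line is a single clone nor whether the libraries came from separate cultures. P-values set the difference between the groups against the variation among libraries of a group, and that variation may therefore be only technical. MGO is a reactive by-product of glycolysis that glycates proteins, histones among them, and glyoxalase 1, the product of GLO1, starts its removal.

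Histone methyltransferases, the writers, move a methyl group from S-adenosylmethionine to a lysine or an arginine of a histone tail or core. Lysine writers mostly carry a SET domain, with DOT1L as the known exception, and arginine writers belong to the PRMT family. The erasers treated here carry a JmjC domain and use iron, oxygen and 2-oxoglutarate to remove the methyl group. Methylated H3K9 and trimethyl H4K20 mark compacted chromatin, H3K27 methylation marks Polycomb-silenced genes, and H3K36 and H3K79 methylation lie over transcribed gene bodies.

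Total counts were 19195920 to 21544749 in MGO libraries and 41002134 to 45910040 in untreated libraries. The mitochondrial share of counts was 5.34% to 8.17% in MGO and 4.20% to 5.42% in untreated libraries, highest in the library numbered 1 of each group. The part of this share in the results was not tested, but the changes of the members that moved at least 2-fold are given below also without both libraries numbered 1. With the untreated libraries thinned to the mean MGO total, all members that changed at least 2-fold kept their direction and call. GLO1 itself was detected throughout, at 140.4 ± 5.30 CPM in MGO and 48.1 ± 2.57 CPM in untreated cells (SD, n = 3 each). CPM is the count relative to the library's total after TMM scaling, and a count summed over all exons does not show whether the knockout lesion is present. Of 8 kidney epithelial markers, KRT8, KRT18, EPCAM and SALL1 were well expressed and PAX2, LHX1 and CDH1 were low. PAX8 had 0 counts in each MGO library and 2 in each untreated library. PAX2, LHX1, CDH1 and SALL1 were lower in every MGO library than in any untreated one, and KRT8, KRT18 and EPCAM higher. PAX2 had 2.49 to 2.99 CPM in MGO and 12.5 to 14.1 CPM in untreated libraries. KRT8 had 817 to 831 CPM in MGO and 512 to 535 CPM in untreated libraries. Of markers of other cell types, PTPRC, PECAM1, ALB and HBB had at most 8 counts in any library, while the collagen gene COL1A1 stood at 10.6 to 12.1 CPM in MGO and 22.3 to 23.5 CPM in untreated libraries. The part of these marker levels in the results was not tested.

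All 43 genes passed the filter on low counts. Their counts ran from 36 for KDM8 in an MGO library to 21416 in a single library, and the lowest count of any other member was 169. The members together took 4077 to 4222 CPM in MGO libraries and 2977 to 2984 CPM in untreated libraries, and these ranges lay far apart. A whole-culture measurement of this kind cannot tell fewer cells with a transcript from less RNA per cell, and a change is always measured against the other transcripts of the same library.

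Erasers were mostly higher with MGO, lysine writers were higher more often than lower, and arginine writers were lower more often than higher. Of the 43 members 28 rose and 12 fell, while 3 missed the threshold (edgeR quasi-likelihood test, adjusted p under 0.05 over all genes). Among all 17415 genes tested, 83.1% were called, 41.8% higher and 41.2% lower, so a call on a single member is no rarity here. The share called higher was 65.1% among the members, and the share called lower 27.9%. The median log2 fold change was 0.39 over the members and 0.01 over all genes tested. At least 2-fold rises were seen in 10 members (23.3%, against 19.8% of all genes) and at least 2-fold falls in 3 (6.98%, against 16.7%), so the share of large rises was near that of all genes. The groups did not overlap for 37 members, 25 higher and 12 lower with MGO (83.5% of all genes tested did not overlap, 41.8% higher and 41.7% lower).

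**Figure D1:**
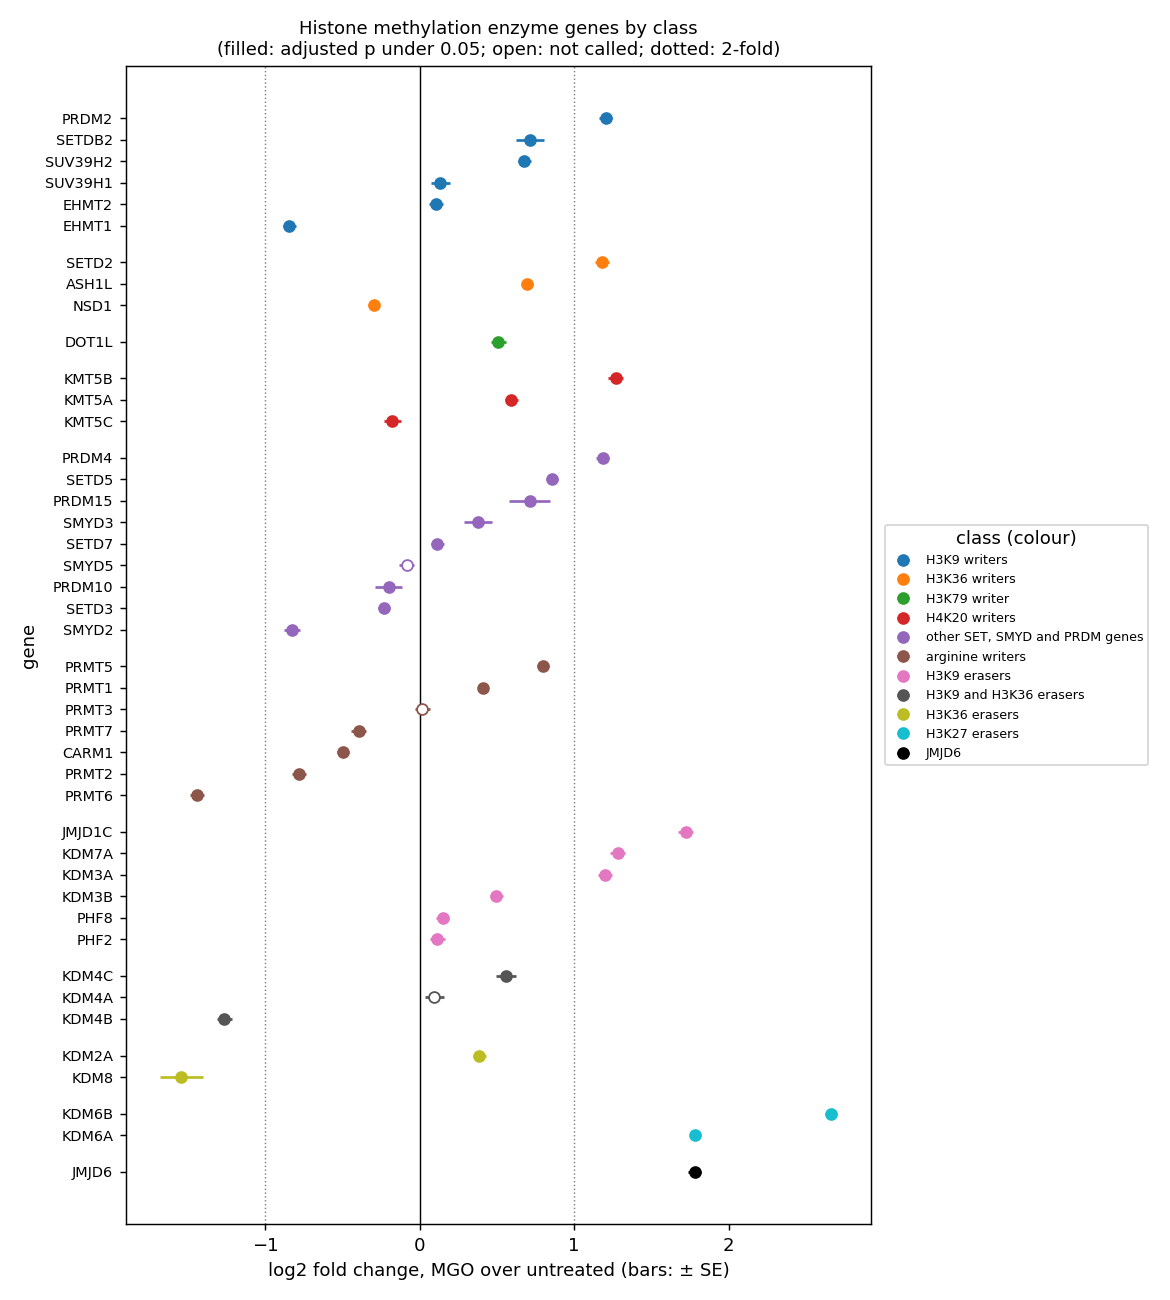
Log2 fold change of each of the 43 genes (MGO over untreated, with the standard error), grouped by the residue and the role of the enzyme. Filled points passed the test and the 3 open points, SMYD5, PRMT3 and KDM4A, did not. The H3K9 and H3K27 eraser genes stand right of 0 and most arginine writer genes stand left of it.

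By role, 11 of 14 erasers rose, 2 fell and KDM4A missed the threshold, and their log2 fold changes had a median of 0.53. Of 29 writers 17 rose, 10 fell and 2 missed it, around a median of 0.14. The writers' median was 0.03 with library size as the only scaling and turned to -0.05 with no filter on low counts, settings under which the erasers' median was 0.42 and 0.345. The lysine writers among them had 15 of 22 higher and 6 lower (median 0.44), and the arginine writers 2 of 7 higher and 4 lower (median -0.39). Rises of at least 2-fold were found in 6 erasers and 4 writers. These counts describe the named genes, and the difference between the roles was not tested.

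Both H3K27 demethylases rose, and KDM6B changed more than any other member. KDM6B (JMJD3, chr17:7839904-7854796 on the plus strand of hg38), a demethylase known from stress and inflammatory induction, stood at 168, 176 and 181 CPM in MGO libraries 1, 3 and 4, against 26.97, 27.9 and 28.1 CPM in untreated libraries 1, 2 and 4. Every MGO library was far above every untreated one. It rose 6.32-fold (log2 fold change 2.66, SE 0.042, adjusted p = 6.35e-31, edgeR). KDM6A (UTX, chrX:44873177-45112602, plus strand), its X-linked relative and a subunit of the KMT2C and KMT2D complexes, had 344, 353 and 363 CPM in MGO libraries and 103, 102 and 104 CPM in untreated libraries. These groups were also fully separate, and the rise was 3.44-fold (log2 fold change 1.78, SE 0.037, adjusted p = 7.94e-28, edgeR). Levels per kilobase use the merged exons of all annotated transcripts of a gene, so levels and ranks of different genes compare only roughly. On that scale KDM6A averaged 49.5 CPM per kb in MGO and 14.4 in untreated cells, and KDM6B 24.1 in MGO and 3.81 in untreated cells. In that order of levels KDM6B was 8th of 43 with MGO and 32nd without, and KDM6A 3rd with MGO and 7th without.

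All 6 members that are demethylases with H3K9 as their main mark passed the test as higher, 3 of them at least 2-fold. JMJD1C (chr10:63167221-63521850, minus strand), a KDM3-family protein whose activity on H3K9 is debated, stood at 82.8, 74.9 and 79.7 CPM in MGO libraries and 23.7, 25.4 and 22.8 CPM in untreated libraries. Its 3.29-fold rise (log2 fold change 1.72, SE 0.050) left a wide gap between the groups. KDM7A, which removes dimethyl marks from H3K9 and H3K27, had 56.7, 57.3 and 55.7 CPM in MGO libraries and 23.5, 23.3 and 23.0 CPM in untreated libraries. KDM3A, an H3K9 demethylase known to be induced by hypoxia, had 92.7, 98.7 and 100.3 CPM in MGO libraries and 40.3, 43.1 and 43.9 CPM in untreated libraries. Both rose by similar amounts with no overlap, 2.43-fold for KDM7A (adjusted p = 1.96e-21, edgeR) and 2.29-fold for KDM3A (adjusted p = 1.58e-21, edgeR). KDM3B, the closest relative of KDM3A, rose less, with 204, 210.3 and 223 CPM in MGO libraries and 145, 156 and 151 CPM in untreated libraries (1.41-fold, no overlap). PHF8, which also acts on H4K20, had 111, 120.1 and 124 CPM in MGO libraries and 104, 109.7 and 106 CPM in untreated libraries. PHF2, which shares its fold, had 59.8, 65.9 and 67.0 CPM in MGO libraries and 57.2, 61.3 and 59.6 CPM in untreated libraries. The log2 fold changes were 0.15 for PHF8, whose groups did not overlap, and 0.12 for PHF2, whose groups did.

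The KDM4 demethylases, which remove trimethyl marks from H3K9 and H3K36, went separate ways. KDM4B (chr19:4969113-5153595, plus strand) was lower in every MGO library, at 25.9, 25.7 and 27.3 CPM, against 61.6, 64.0 and 63.7 CPM in untreated libraries. This was a 2.4-fold fall (log2 fold change -1.26, SE 0.049, adjusted p = 6.12e-21, edgeR). KDM4C had 21.9, 24.7 and 22.8 CPM in MGO libraries and 14.9, 16.2 and 16.0 CPM in untreated libraries, a 1.47-fold rise with no overlap. KDM4A did not pass the test, with 29.5, 27.3 and 32.9 CPM in MGO libraries and 26.7, 27.6 and 30.0 CPM in untreated libraries (log2 fold change 0.10, adjusted p = 0.152, edgeR). The KDM4A groups overlapped.

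The H3K36 demethylases also split. KDM2A, which removes dimethyl H3K36 and binds unmethylated CpG islands, rose to 85.6 ± 3.23 CPM with MGO, against 65.5 ± 2.32 CPM in untreated cells (1.31-fold). KDM8 (JMJD5, chr16:27203495-27221768, plus strand), reported as an H3K36 demethylase and as an arginine hydroxylase, was the least expressed member per kilobase with MGO and stood at 1.99, 1.93 and 2.52 CPM in MGO libraries and 5.63, 6.83 and 6.44 CPM in untreated libraries. It fell 2.91-fold (log2 fold change -1.54, SE 0.14, adjusted p = 9.50e-12, edgeR), the largest fall of any member, with a larger standard error than the other members that fell. JMJD6 (chr17:76712832-76726799, minus strand), reported as an arginine demethylase and as a lysyl hydroxylase of splicing factors, had 157, 153 and 145 CPM in MGO libraries and 42.8, 45.3 and 44.5 CPM in untreated libraries. Its rise was 3.43-fold (log2 fold change 1.78, SE 0.041, adjusted p = 7.67e-27, edgeR), close in size to that of KDM6A.

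**Figure D2:**
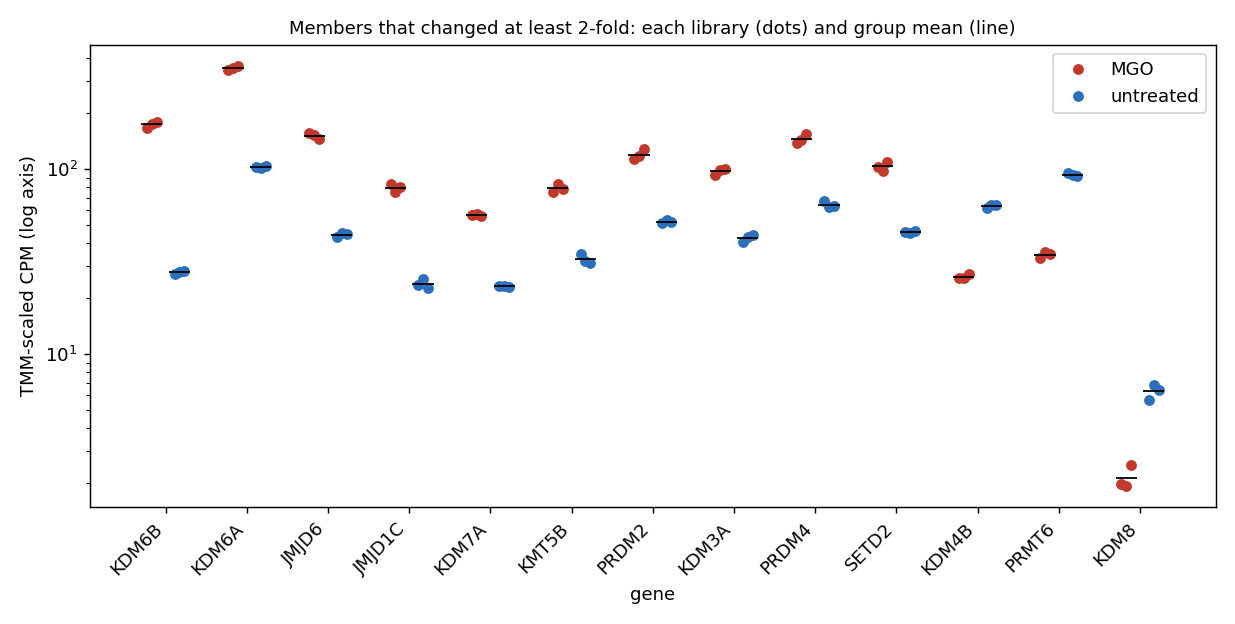
TMM-scaled CPM (log axis) of the 13 members that changed at least 2-fold, with a dot for each library and a line at the mean of each group of 3, MGO left of untreated. In the 10 genes at the left every MGO library is above every untreated one, and in KDM4B, PRMT6 and KDM8 every MGO library is below.

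Promoter sequence was at hand for 26 of the 43 members (250 bases before the start, RefSeq, GRCh38.p14). These 26 hold 7 of the 13 members that changed at least 2-fold, and KDM6B, JMJD6, JMJD1C, KDM3A, PRDM2 and KMT5B are missing. The hexamer CACGTG, the E-box bound by MYC and USF type factors, reads the same on both strands and was found before 5 of the 26 (19.2%) and before 9.06% of 7653 tested genes with such a promoter. It is shown for the JmjC demethylase genes that hold it, since it occurs before one that rose 3.44-fold, one that rose 1.47-fold and one that fell 2.4-fold. Capitals mark CACGTG, and each sequence runs 5′ to 3′ on the plus strand, at chrX:44872938-44873187 for KDM6A, chr9:6757723-6757972 for KDM4C and chr19:4968863-4969112 for KDM4B. The KDM4C window lies before the start that RefSeq gives and ends 37.1 kb inside the gene as GENCODE draws it, so it is not the sequence before the outermost annotated start.
KDM6A: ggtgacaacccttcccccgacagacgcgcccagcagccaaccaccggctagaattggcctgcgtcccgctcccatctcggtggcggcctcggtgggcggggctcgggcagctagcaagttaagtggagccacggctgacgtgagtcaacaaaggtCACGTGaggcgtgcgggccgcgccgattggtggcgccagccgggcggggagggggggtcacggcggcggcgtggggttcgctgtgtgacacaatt
KDM4C: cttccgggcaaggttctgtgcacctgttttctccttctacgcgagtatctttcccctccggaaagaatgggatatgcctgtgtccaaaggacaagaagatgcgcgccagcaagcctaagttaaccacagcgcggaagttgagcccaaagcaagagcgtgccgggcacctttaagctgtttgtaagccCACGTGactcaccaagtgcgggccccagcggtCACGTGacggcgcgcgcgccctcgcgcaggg
KDM4B: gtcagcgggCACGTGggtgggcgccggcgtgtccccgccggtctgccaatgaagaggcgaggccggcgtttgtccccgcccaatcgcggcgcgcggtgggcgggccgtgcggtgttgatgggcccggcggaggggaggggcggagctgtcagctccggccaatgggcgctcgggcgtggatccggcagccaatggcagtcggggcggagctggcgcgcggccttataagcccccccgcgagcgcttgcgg
The KDM4C window holds 2 copies and each of the other windows 1 copy, ending 89 bases before the KDM6A start and 235 bases before the KDM4B start. EHMT2 and PRMT3 were the other members with this motif. Among further motifs read on both strands, CCAAT was found before 10 of the 26 (38.5%, against 35.9% of all) and TGACG before 8 (30.8%, against 30.5%). The AP-1 motif TGANTCA stood before 2 (KDM4C and KDM6A, 7.69%, against 3.80% of all). The antioxidant motif TGACNNNGC stood before 1 (3.85%, against 12.2%). The full cyclic AMP element TGACGTCA, which contains TGACG, stood before 1 (SUV39H2, 3.85%, against 3.19%). The ATF4 composite TGATGNAA stood before 0, against 1.11% of all, a share too small for its absence among 26 to mean anything. Matches of letters are a description, and no binding was measured.

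Of the 6 H3K9 writers 5 passed the test as higher and 1 as lower. PRDM2 (RIZ), a PR-domain H3K9 methyltransferase, had 114, 118 and 129 CPM in MGO libraries and 51.3, 53.3 and 51.7 CPM in untreated libraries. It rose 2.30-fold, and its groups did not overlap (log2 fold change 1.20, SE 0.043, adjusted p = 6.78e-22, edgeR). SETDB2 rose to 11.5 ± 1.35 CPM with MGO, against 7.02 ± 0.366 CPM in untreated cells. SUV39H2, which trimethylates H3K9 in pericentric heterochromatin, had 64.2, 62.8 and 66.2 CPM in MGO libraries and 40.3, 40.8 and 39.8 CPM in untreated libraries, a 1.6-fold rise with no overlap. Its X-linked counterpart SUV39H1 had 38.6, 44.6 and 48.2 CPM in MGO libraries and 40.7, 41.5 and 37.7 CPM in untreated libraries, which overlapped (log2 fold change 0.14, adjusted p = 0.0497, edgeR). The partners of the euchromatic H3K9 dimethyl writer also differed from each other. EHMT1 (GLP) had 53.0, 49.3 and 53.4 CPM in MGO libraries and 91.7, 92.6 and 95.2 CPM in untreated libraries, a 1.79-fold fall with no overlap. EHMT2 (G9a) had 79.1, 76.9 and 69.1 CPM in MGO libraries and 69.3, 68.4 and 71.2 CPM in untreated libraries, which overlapped (log2 fold change 0.11, adjusted p = 0.0301, edgeR).

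Among the H3K36 writers, SETD2, the H3K36me3 writer that travels with elongating RNA polymerase II, stood at 103, 97.3 and 109.9 CPM in MGO libraries and 45.9, 45.1 and 46.2 CPM in untreated libraries. It rose 2.26-fold (log2 fold change 1.18, SE 0.044, adjusted p = 1.65e-21, edgeR), every MGO library being above every untreated one. The dimethyl writer ASH1L rose to 76.6 ± 0.487 CPM with MGO, against 47.3 ± 1.21 CPM in untreated cells (1.62-fold). NSD1, another dimethyl writer, had 159.9, 152 and 157 CPM in MGO libraries and 196, 189.9 and 191 CPM in untreated libraries, a 1.23-fold fall with no overlap. DOT1L, the H3K79 writer, had 72.9, 79.2 and 87.1 CPM in MGO libraries and 56.3, 55.6 and 56.6 CPM in untreated libraries. The groups were separate and the rise was 1.42-fold (log2 fold change 0.51, SE 0.048, adjusted p = 1.43e-10, edgeR), with a wider spread among MGO libraries.

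The H4K20 writers divided by enzyme. KMT5B, which adds further methyl groups, had 74.99, 83.1 and 77.8 CPM in MGO libraries and 34.8, 31.9 and 31.2 CPM in untreated libraries. It rose 2.41-fold with no overlap (log2 fold change 1.27, SE 0.049, adjusted p = 5.23e-21, edgeR). KMT5A, which places the first methyl group, rose 1.51-fold, to 151 ± 4.41 CPM with MGO, against 100.1 ± 3.88 CPM in untreated cells. KMT5C, the paralog of KMT5B, fell slightly, with 27.6, 28.6 and 29.1 CPM in MGO libraries and 31.7, 32.2 and 32.5 CPM in untreated libraries (1.13-fold, no overlap, adjusted p = 0.00295, edgeR).

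Exons of another annotated gene overlap 11.5% of the exonic length of DOT1L, 19.9% of that of CARM1, 27.1% of that of PRMT5, 20.3% of that of SUV39H1, 14.5% of that of KDM8 and 40.2% of that of KDM4A, and how the counting treated such reads is unknown here.

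The other SET, SMYD and PRDM genes, many of whose products act mainly on proteins other than histones or have debated activity, comprised 9 members, of which 5 rose, 3 fell and 1 did not pass. PRDM4, a zinc finger protein reported to recruit PRMT5, stood at 139, 144 and 154 CPM in MGO libraries and 67.1, 62.4 and 63.0 CPM in untreated libraries. Its rise was 2.27-fold, with separate groups (log2 fold change 1.18, SE 0.043, adjusted p = 7.82e-22, edgeR). SETD5 rose 1.81-fold, to 135 ± 6.21 CPM with MGO, against 74.5 ± 1.72 CPM in untreated cells, and PRDM15 rose 1.64-fold with the widest relative spread of any member in the MGO group (13.04 ± 2.71 CPM in MGO and 8.01 ± 0.959 CPM in untreated cells). SMYD3, a lysine methyltransferase of cytoplasm and nucleus, rose 1.3-fold, with 11.8, 11.6 and 11.9 CPM in MGO libraries and 7.81, 9.34 and 10.1 CPM in untreated libraries. SMYD2, which methylates p53 as well as H3K36, had 25.7, 24.8 and 25.1 CPM in MGO libraries and 46.1, 43.4 and 44.7 CPM in untreated libraries, a 1.77-fold fall with no overlap. SETD3, the actin histidine methyltransferase, fell 1.17-fold. PRDM10 averaged 9.85 ± 0.540 CPM in MGO and 11.3 ± 1.14 CPM in untreated cells, and its groups overlapped (log2 fold change -0.20, adjusted p = 0.0350, edgeR). SETD7, known for H3K4 monomethylation and many other substrates, had a log2 fold change of 0.12, and SMYD5 one of -0.08 that missed the threshold (adjusted p = 0.117, edgeR).

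Among the classes with more than 1 member, arginine methyltransferases were the one in which falls outnumbered rises. Outside the members, PRMT9 of the list of other enzymes rose, with a log2 fold change of 0.33 and no overlap. PRMT6 (chr1:107056679-107067636, plus strand), whose asymmetric mark near the end of the H3 tail is known to oppose H3K4 trimethylation, had 33.0, 35.6 and 34.6 CPM in MGO libraries and 95.1, 93.2 and 92.0 CPM in untreated libraries. The groups were far apart, and the fall was 2.71-fold (log2 fold change -1.44, SE 0.045, adjusted p = 1.76e-23, edgeR). Per kilobase, PRMT6 was 24th of 43 with MGO and 5th in untreated cells. PRMT2 fell to 42.1 ± 1.17 CPM with MGO, against 72.3 ± 1.68 CPM in untreated cells (1.72-fold). CARM1 (PRMT4), a transcriptional coactivator, fell 1.41-fold, with 86.6, 91.0 and 86.8 CPM in MGO libraries and 125, 124 and 124 CPM in untreated libraries, and PRMT7, a monomethylating enzyme, fell 1.31-fold. The members that rose were those with the highest levels per kilobase in both groups. PRMT1, the main asymmetric dimethylarginine writer of human cells, had 615, 606 and 593 CPM in MGO libraries and 459, 447 and 459 CPM in untreated libraries, a 1.33-fold rise with no overlap. Its level was 126 ± 2.28 CPM per kb in MGO and 94.9 ± 1.41 CPM per kb in untreated cells. PRMT5, the main symmetric writer, rose 1.74-fold, to 50.5 ± 1.08 CPM per kb with MGO, against 29.1 ± 0.346 CPM per kb in untreated cells. PRMT3, a ribosomal protein methyltransferase, had a log2 fold change of 0.02 and missed the threshold (adjusted p = 0.732, edgeR), at 34.7 ± 0.467 CPM in MGO and 34.3 ± 0.384 CPM in untreated cells.

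Count ratios of related genes within a library do not depend on the scaling between libraries, and 14 such pairs were compared. These pairs were chosen with earlier results of these data known, so their separation and p-values are a description only. The groups were fully separate for 13 pairs (two-sided exact permutation p = 0.1 each, the smallest that 3 against 3 allows, adjusted p = 0.108 over the pairs), so none could pass a threshold of 0.05. Of all single genes tested, 83.5% had separate groups, and how often other pairs of genes separate was not tested. The ratio of EHMT1 to EHMT2 counts changed sides, with log2 ratios of -0.58, -0.64 and -0.37 in MGO libraries, against 0.40, 0.44 and 0.42 in untreated libraries. EHMT1 was thus the less counted gene in every MGO library and the more counted one in every untreated library. The largest shift was that of PRMT1 over PRMT6, at a log2 ratio of 4.13 ± 0.07 in MGO and 2.29 ± 0.03 in untreated libraries (SD, n = 3 each), a 3.60-fold change of the ratio. SETD2 over NSD1 stayed below 0 in every library, at -0.60 ± 0.07 in MGO and -2.07 ± 0.02 in untreated libraries (2.78-fold), and KMT5B over KMT5C stood at 1.46 ± 0.06 in MGO and 0.02 ± 0.10 in untreated libraries (2.72-fold). KDM4A over KDM4B was above 0 in all MGO libraries (0.18 ± 0.09) and below 0 in all untreated ones (-1.17 ± 0.07). KDM6A over KDM6B was 1.02 ± 0.02 in MGO and 1.89 ± 0.03 in untreated libraries, since KDM6B gained more than KDM6A. PHF8 over PHF2 differed least, at 0.88 ± 0.01 in MGO and 0.85 ± 0.02 in untreated libraries (difference 0.03, exact permutation p = 0.2), with overlapping groups.

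**Figure D3:**
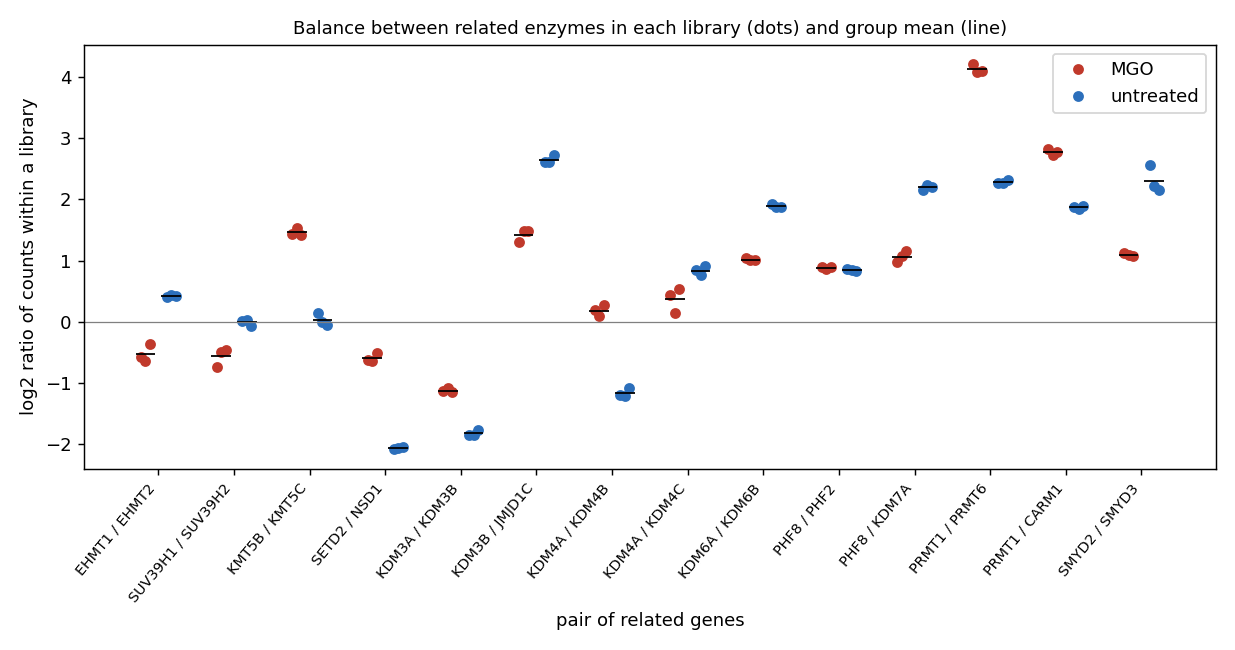
Log2 ratio of the counts of related genes in each library (dots) with the mean of each group of 3 (line), MGO left of untreated. All pairs except PHF8 over PHF2 have separate groups, and EHMT1 over EHMT2 and KDM4A over KDM4B lie on opposite sides of 0 in the groups.

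Genes around the enzymes were read from lists of their substrates' suppliers, partners and readers. Supply genes were mostly lower, with 14 of 19 fallen, 4 risen and 1 not called, at a median log2 fold change of -0.33, against 41.2% lower and a median of 0.01 over all genes tested. MAT2A, the S-adenosylmethionine synthetase of most tissues, fell to 32.3 ± 3.43 CPM with MGO, against 263 ± 2.55 CPM in untreated cells (log2 fold change -3.02, adjusted p = 1.99e-27, edgeR). IDH1, which makes cytosolic 2-oxoglutarate, fell to 13.9 ± 1.17 CPM with MGO, against 132 ± 1.46 CPM in untreated cells (log2 fold change -3.25). OGDH, which consumes 2-oxoglutarate in mitochondria, fell to 34.7 ± 4.596 CPM with MGO, against 112 ± 2.60 CPM in untreated cells.

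Of 22 partners 12 rose, 8 fell and 2 were not called (list median 0.21 on the log2 scale). That is 54.5% higher and 36.4% lower, against 41.8% and 41.2% of all genes tested. RIOK1, a PRMT5 adaptor, had a log2 fold change of 1.58, ZNF644, which targets EHMT1 and EHMT2, one of 1.5, MTF2, a Polycomb accessory protein, one of 1.10, and ATF7IP, the stabilising partner of SETDB1, one of 1.02. Other writers and erasers, 27 genes of which 24 passed the filter, had 8 rises, 12 falls and 4 not called (list median -0.15). Of these 24, 33.3% were higher and 50% lower, against 65.1% and 27.9% of the members. SETD4 rose to 61.4 ± 2.44 CPM with MGO, against 12.6 ± 0.211 CPM in untreated cells, and EZH2, the Polycomb H3K27 writer, to 192 ± 10.9 CPM with MGO, against 67.2 ± 0.866 CPM in untreated cells. PRDM16 fell to 2.36 ± 0.252 CPM with MGO, against 10.8 ± 0.837 CPM in untreated cells, and PRDM6 had a log2 fold change of -1.55. EZH2 and both H3K27 erasers thus rose in the same libraries.

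Readers of these marks showed 13 rises, 12 falls and 4 not called among 29 tested (list median 0.02). These shares, 44.8% higher and 41.4% lower, were near the 41.8% and 41.2% of all genes tested, so the counts say nothing particular about readers. UHRF2, which binds H3K9 methylation, rose to 118 ± 4.51 CPM with MGO, against 23.6 ± 1.63 CPM in untreated cells. BRPF1, an H3K36 methylation reader of MYST acetyltransferase complexes, had a log2 fold change of 1.75, and ORC1, which binds dimethyl H4K20 at origins, one of 1.30. SMN1, a methylarginine reader, had 1.56, but its copy SMN2 is nearly identical and reads may be shared.

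**Figure D4:**
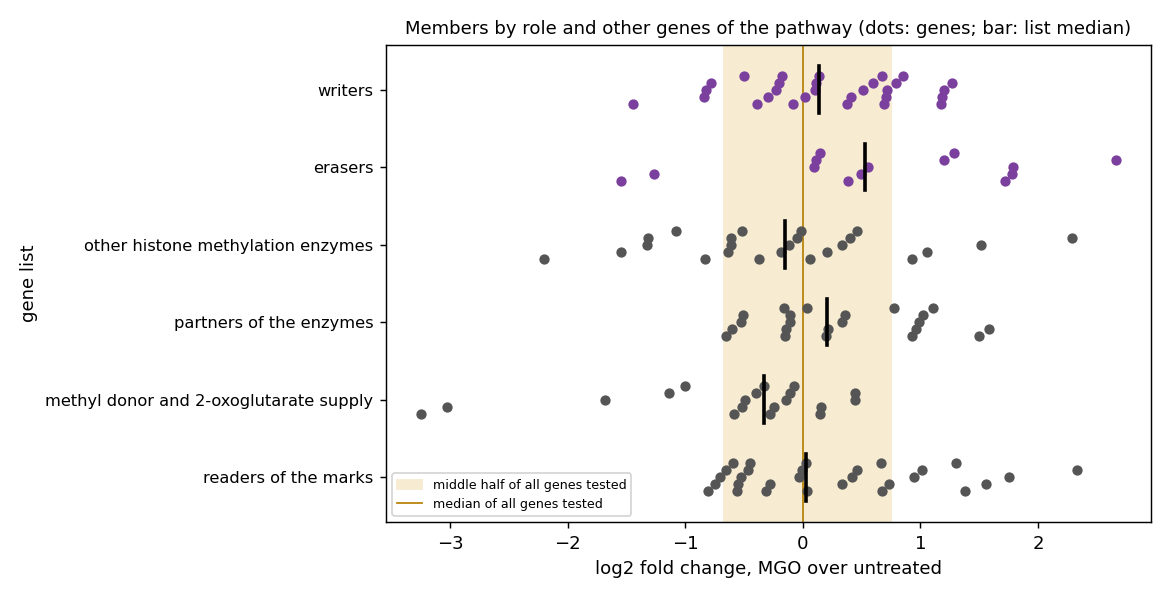
Log2 fold change of each tested gene (dots) for the writers and erasers followed here and for the surrounding lists, with the list median as a black bar. The band spans the quartiles of all genes tested, -0.67 to 0.75, and the supply list reaches furthest to the left, with IDH1 and MAT2A near -3.

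Small changes were the unstable ones. With no filter on low counts the direction of EHMT2, SUV39H1, SETD7, PHF2, PHF8, KDM4A and PRMT3 turned, and with library size as the only scaling that of EHMT2, KDM4A and PRMT3. The calls of 6 members were lost on leaving out a single library. EHMT2 lost its call without MGO library 1 or 3 and without any one untreated library (log2 fold change 0.04 to 0.11), and SUV39H1 without MGO library 3 or 4 and without any one untreated library (0.02 to 0.15). The call of PHF2 needed MGO libraries 3 and 4 and untreated libraries 1 and 4 (0.05 to 0.11 without one of them), that of SETD7 MGO libraries 3 and 4 and untreated library 4 (0.03 to 0.11), that of PHF8 MGO libraries 3 and 4 (0.08 and 0.11), and that of PRDM10 MGO library 1 and untreated library 2 (-0.19 and -0.12). With all libraries kept, PRDM10 and SUV39H1 also lost their calls with limma voom and with thinned untreated libraries. PRDM10 lost its call with RLE scaling, upper quartile scaling and DESeq2 as well. In total each of these 2 genes lost its call, with direction kept, in 11 of the 19 alternative fits. All 13 members with at least 2-fold changes kept direction and call under each of the 19 alternative fits, and without both libraries numbered 1 the log2 fold change was 2.66 for KDM6B, 1.79 for KDM6A, 1.72 for JMJD6, 1.67 for JMJD1C, -1.41 for PRMT6, -1.28 for KDM4B and -1.58 for KDM8.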

How the data were processed

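PolyA-selected RNA was sequenced in paired reads from 6 libraries. The authors deposited whole-number counts per gene symbol, with no normalization. Per the submitters' processing notes, Trim Galore, STAR 2.4, Picard and HTSeq 0.9.1 were used with build hg38. Neither the annotation, the program settings nor the use of strand was given in the sources used here. Genes that share exons are therefore uncertain. Of all rows, 29 carry a date in place of a symbol and 4 share a name, and none of these is reported.

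A single model over all genes was fitted with edgeR 4.0.16 in R 4.3.3, using filterByExpr (17415 genes kept), TMM scaling, robust glmQLFit with 4 residual degrees of freedom, the two-sided glmQLFTest and a Benjamini-Hochberg threshold of 0.05. Standard errors were taken as |log2 fold change| over the square root of F. Libraries of a group differed by more than sampling noise (chi-square per degree of freedom 1.88 to 14.7). Levels between genes are CPM per kilobase of merged exons, and coordinates of genes are those of GENCODE (GRCh38). Pair ratios used counts plus 0.5.

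The members, classes, lists and pairs were chosen with earlier results of these data known. Every member may be named. Values in every library are given for members with a called change of at least 2-fold, for the largest called change of each class and for members of a pair. Of each list, up to 4 genes with the largest called change and a mean of at least 5 CPM are named, as is GLO1. A gene that this rule would name is not reported here. The fit was tested on simulated data. Alternatives were other scalings and filters, left-out libraries, replicate blocks, limma 3.58.1 voom, DESeq2 1.42.0, no robust shrinkage, thinned untreated counts and a test against a fold of 1.5.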

Additional observations from a re-analysis of the deposited data

How the results depend on the processing

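Across 18 alternatives other than the test against a fold of 1.5, 34 of 43 members kept direction and call. The exceptions were EHMT2, SUV39H1, SETD7, SMYD5, PRDM10, PHF2, PHF8, KDM4A and PRMT3. Library size as the only scaling moved the median of all genes by -0.11 and dropping the filter by -0.18, and changes of that size depend on the scaling. With library size alone, direction reversed for EHMT2 (-0.0004), KDM4A (-0.0098) and PRMT3 (-0.0871). With no filter it reversed for EHMT2 (-0.077), SUV39H1 (-0.048), SETD7 (-0.067), PHF2 (-0.067), PHF8 (-0.033), KDM4A (-0.086) and PRMT3 (-0.16), and PRMT3 also reversed without MGO library 1 (-0.017), 3 (-0.0017) or 4 (-0.0151) with a highest value of 0.0191, and KDM4A without MGO library 4 (-0.0184). Class medians (log2) with library size alone and with no filter were 0.30 and 0.22 for H3K9 writers, 0.59 and 0.51 for H3K36 writers, 0.49 and 0.41 for H4K20 writers, 0.0104 and -0.07 for other SET, SMYD and PRDM genes, 0.74 and 0.66 for H3K9 erasers, -0.0098 and -0.09 for KDM4 genes, 2.12 and 2.04 for H3K27 erasers and -0.50 and -0.57 for arginine writers; the H3K36 eraser median was -0.76 with no filter. With at least 1 CPM in every library they were 0.47 for H3K9 writers, 0.18 for other SET, SMYD and PRDM genes, 0.91 for H3K9 erasers, 2.29 for H3K27 erasers and -0.33 for arginine writers, which had -0.34 with thinned untreated libraries. Leaving out single libraries gave 0.35 to 0.42 for H3K9 writers, 0.0259 to 0.12 for other SET, SMYD and PRDM genes, 0.78 to 0.86 for H3K9 erasers, -0.02 to 0.14 for KDM4 genes, 2.16 to 2.22 for H3K27 erasers, -0.69 to -0.55 for H3K36 erasers and -0.48 to -0.38 for arginine writers, the KDM4 median turning and the median of other SET, SMYD and PRDM genes falling lowest without MGO library 4. The causes were not tested.

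Against a fold of 1.5 in place of 1, which is stricter by construction, 8305 genes were called (4363 higher, 3942 lower), with 15 members higher and 6 lower, 9 writers higher and 4 lower and 6 erasers higher. The lists then had 4 higher and 6 lower other enzymes, 1 lower partner, 0 higher and 5 lower supply genes and 4 lower readers. Other counts moved by over 1.5 times as well, since 2 supply genes were higher with library size alone and with no filter, and 5 partners were lower with at least 1 CPM in every library. Libraries of the same number did not deviate together (r = 0.02 for number 1 and -0.01 for number 4). Only numbers 1 and 4 occur in both groups, so this does not settle whether the numbers pair libraries. With the replicate number as a fixed block 13451 genes were called, and as a random block 14438, against 14464 without the block. Of the members, EHMT2, SUV39H1, PRDM10 and PHF2 lost their calls with the fixed block. The MGO libraries held fewer counts, and how far depth limits the precision of small changes there was not tested.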

Other observations

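Exon length and shared exons were described for the members as well. Merged exons had a median length of 7.26 kb over the 43 members and 5.11 kb over 13470 protein-coding genes tested. The members above their median length had a median log2 fold change of 0.51 (21 genes) and the others 0.13 (22 genes), while protein-coding genes on the same sides of that length had -0.14 and -0.05. Across genes, Pearson's r of log2 fold change with log2 exon length was 0.12 over the members and -0.08 over protein-coding genes, points that share the same 6 libraries. Both are weak.

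In GENCODE, 15 members share exonic sequence with a gene on the opposite strand, 7 of them over more than 5% of their exons. YIPF2, which overlaps 19.9% of the exonic length of CARM1, rose to 50.5 CPM with MGO, against 32.8 CPM in untreated cells, so its log2 fold change of 0.62 ran against the fall of CARM1. PLEKHJ1, beside DOT1L, had a log2 fold change of 0.33, and DCLRE1C, which shares 4.46% of the exons of SUV39H2, one of 1.44, both in the direction of the member. Whether reads of these neighbours entered the counts of the members was not tested.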
